A study of Mus musculus with 6 samples.

Results

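The 9 genes described here encode regulators that set or read the fast and slow fibre programmes of skeletal muscle. They are Eya1, Sox6 and Tbx15, which act in the fast programme, Prox1, Nfatc1 and Rcan1, which belong to the slow programme, and Mef2a, Mef2c and Mef2d, the MEF2 factors. Members were taken from the count table by gene symbol, 9 of its 49315 genes. The list of members was set with earlier results of these data known. All 9 were among the 15847 genes with enough counts to be tested. RNA came from the gastrocnemius, a mixed calf muscle that is mostly fast, of male C57BL6J mice that received an AAV9 vector by injection at 5 months of age and were studied 5 months afterwards. The AAV9-HSA-CAAHR group (CAAHR replicates 31, 34 and 36) received a constitutively active aryl hydrocarbon receptor (AHR), a transcription factor that normally needs a ligand and whose ligand-binding domain was removed in this construct. The AAV9-HSA-GFP group (GFP replicates 42, 43 and 46) received a fluorescent protein under the same human skeletal actin promoter, HSA, which drives expression in myofibres. The comparison asks whether the active receptor changes the regulators of fibre type, with 3 libraries in each group.

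Mammalian muscle fibres are slow or fast according to the myosin heavy chain they make, and slow fibres are supplied by many mitochondria. In slow motor units, repeated nerve impulses raise calcium, which activates the phosphatase calcineurin. Calcineurin moves NFAT proteins such as Nfatc1 into the nucleus, where they act with MEF2 factors on slow fibre genes, while histone deacetylases hold MEF2 factors back. On the fast side Eya1, Tbx15 and Sox6 favour fast or glycolytic genes or repress slow ones.

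Libraries held 43432994 to 58825752 counts. Ahr itself was at 9.97, 22.8 and 17.3 CPM (read counts relative to TMM-scaled library size) in CAAHR replicates 31, 34 and 36 and at 2.47, 2.55 and 1.87 in GFP replicates 42, 43 and 46, a rise of 2.87 ± 0.31 on the log2 scale (SE, adjusted p = 0.00229), and reads of the delivered gene and of the mouse gene are not told apart here. Across all tested genes 1205 (7.60%) passed an adjusted p of 0.05 in the edgeR quasi-likelihood test, 481 (3.04%) higher and 724 (4.57%) lower. The share that was lower among them was 60.1%, and it was 73.4% with upper quartile scaling and 40.7% with scaling by library size only. CAAHR replicate 34 stood apart from the other CAAHR libraries in slow fibre transcripts, and the sources used here name only the gastrocnemius for RNA. Per the methods, red portions of this muscle were cut out where fibre bundles were prepared. For the mice given vectors, the paper instead took mitochondria from the whole gastrocnemius. Which part of the muscle gave the sequenced RNA is not said. The mean log2 CPM of 10 slow contractile genes was 7.30, 5.26 and 7.19 in CAAHR replicates 31, 34 and 36 and 3.75, 4.21 and 4.73 in GFP replicates 42, 43 and 46. No label says that the libraries came from separate animals beyond their numbering, so p-values measure the spread between these samples only.

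None of the 9 regulators passed the edgeR quasi-likelihood test at an adjusted p of 0.05 (0 of 9, against 7.60% of all tested genes). At an unadjusted p of 0.05, 2 of 9 passed (22.2%, against 23.9% of tested genes), namely Rcan1 and Mef2c, both higher (against 11.3% of tested genes). The same 2 genes had no overlap between the groups, both being higher in CAAHR (22.2%, against 29.9% of tested genes that did not overlap and 15.0% that did so with CAAHR higher). With 9 members, 1 gene more or fewer covers the distance of each of these shares from that of all genes. By other tools, DESeq2 called Rcan1 and Mef2c (2 of 9), limma-voom called Rcan1 (1 of 9), and edgeR without robust estimation called Rcan1 (1 of 9). The fitted log2 change was above 0 for 8 of 9 members, with a median of 0.20 against 0.0086 over all tested genes. That count was 6 with upper quartile scaling and 9 with scaling by library size only, which moved the median of all genes by -0.072 and 0.082.

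**Figure D1:**
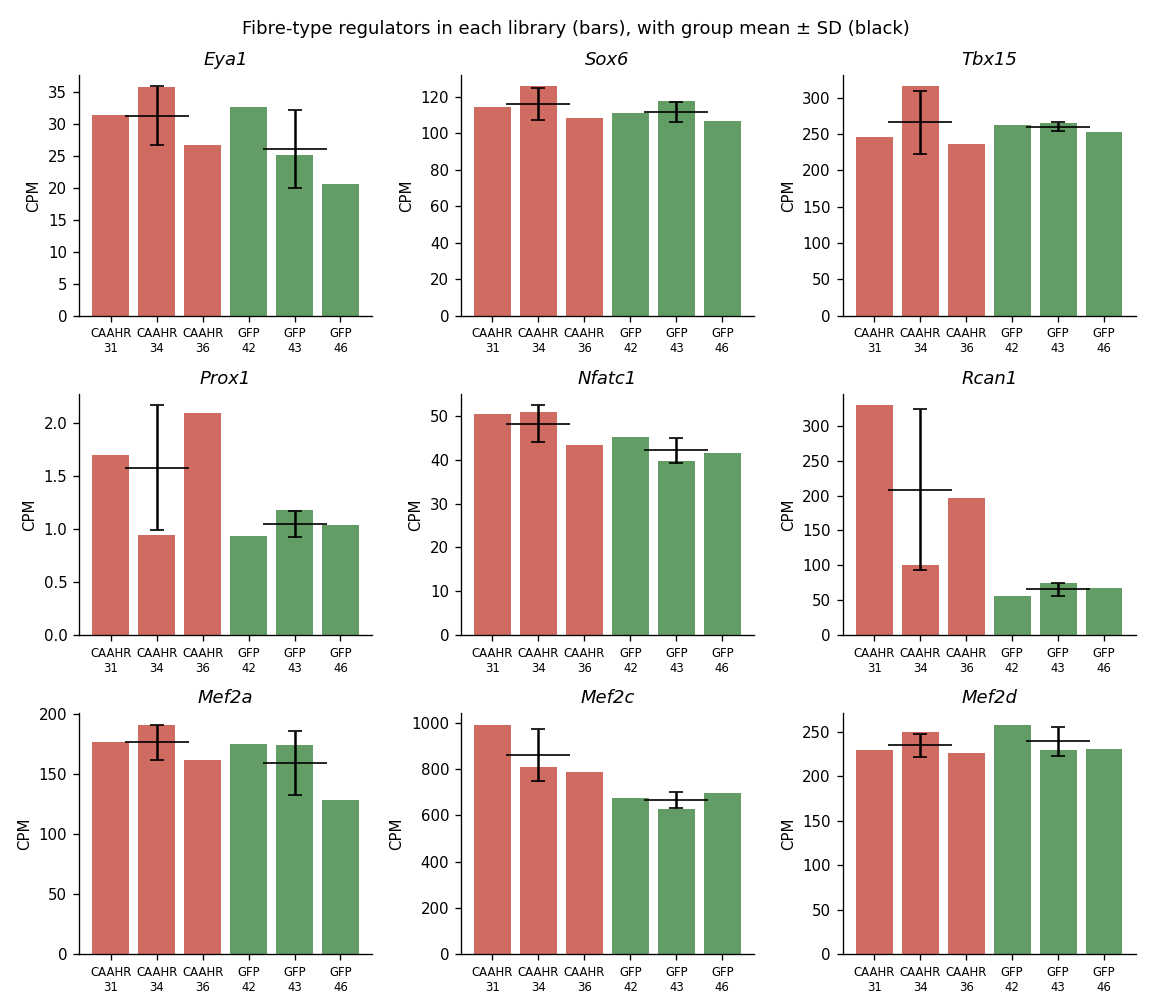
CPM of each of the 9 regulators, 1 panel per gene with a linear axis from 0, with a bar for each of the 3 CAAHR (red) and 3 GFP (green) libraries and the mean ± SD of each group in black. Only Rcan1 and Mef2c have every CAAHR library above every GFP library, and for Rcan1 CAAHR replicate 34 lies closest to the GFP libraries, at 99.96 CPM.

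The fast programme regulators gave no called change. Eya1, a transcriptional coactivator and phosphatase (GRCm38, chromosome 1, 14168954 to 14310235, minus strand), was at 31.4, 35.8 and 26.7 CPM in CAAHR replicates 31, 34 and 36 and at 32.7, 25.1 and 20.6 CPM in GFP replicates 42, 43 and 46. The groups overlapped, with GFP replicate 42 above CAAHR replicates 31 and 36. Group means were 31.3 ± 4.58 and 26.2 ± 6.10 CPM (SD, n = 3 each), and the log2 difference was 0.26 ± 0.17 (SE, adjusted p = 0.414), with a 95% interval from -0.14 to 0.66. It was 0.14 without CAAHR replicate 34, 0.46 without GFP replicate 42 and 0.11 without GFP replicate 46. Eya1 had the widest spread of the 9 members among GFP libraries, a coefficient of variation of 23.3%.

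Tbx15, a T-box factor found in glycolytic fibres (chromosome 3, 99240381 to 99354259, plus strand), was at 245.6, 315.6 and 236.6 CPM in the CAAHR libraries and at 262.2, 264.5 and 252.8 CPM in the GFP libraries. Only CAAHR replicate 34 lay above the GFP libraries, and the other 2 lay below them. The coefficient of variation was 16.3% in CAAHR and 2.39% in GFP. The log2 difference was 0.03 ± 0.13 (adjusted p = 0.908), with an interval from -0.25 to 0.31, and its sign turned with upper quartile scaling (-0.038) and with limma-voom (-0.037).

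Sox6, an SRY-related factor that represses slow fibre genes (chromosome 7, 115470872 to 116038796, minus strand), was at 114.4, 125.8 and 108.7 CPM in CAAHR and at 111.1, 117.8 and 106.7 CPM in GFP. The groups overlapped almost wholly. Means were 116.3 ± 8.73 and 111.9 ± 5.59 CPM, and the log2 difference of 0.06 ± 0.10 (adjusted p = 0.789, interval -0.16 to 0.27) became -0.016 with upper quartile scaling. Replicate 34 was the highest CAAHR library and replicate 43 the highest GFP library.

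Sox6 mRNA is a known target of microRNAs that lie in introns of slow myosin genes, and these host genes were among the slow contractile genes measured here. Mature microRNAs were not measured. Their sequences (RefSeq, GRCm38.p6) are shown because the seed, bases 2 to 8 in capitals, sets which Sox6 sites each can pair with. mmu-miR-499-5p lies at chr2:155622893-155622913 on the plus strand inside Myh7b, and mmu-miR-208b-3p lies at chr14:54975710-54975731 on the minus strand inside Myh7.
mmu-miR-499-5p: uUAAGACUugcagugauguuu
mmu-miR-208b-3p: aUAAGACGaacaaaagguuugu

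Complements of these seeds were searched in the longest annotated 3′ untranslated region of every protein-coding gene with one (GENCODE M21, 21039 genes). The Sox6 region of 6046 bases held 3 matches to the miR-499-5p seed and 1 to the miR-208b-3p seed, and the other 8 members held 0. Of all genes, 9.47% held at least 1 match to the first and 1.52% to the second. These shares were not matched for length, and a longer region can hold more matches. The regions of the other members were shorter than that of Sox6, from 1500 bases for Rcan1 to 5185 for Prox1. The Sox6 matches are printed on the transcript strand, with the match in capitals, at chr7:115476626-115476648, chr7:115476313-115476335, chr7:115476291-115476313 and chr7:115476635-115476657 (GRCm38, minus strand). A match is a description of the letters and not a measured site.
Sox6 site 1, miR-499-5p: catcgccgtcttatgAGTCTTAc
Sox6 site 2, miR-499-5p: cttaactattttaaaAGTCTTAc
Sox6 site 3, miR-499-5p: caggagacactgcaaAGTCTTAg
Sox6 site 4, miR-208b-3p: atctctgcccatcgcCGTCTTAt

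Of the host genes Myh7b passed the test and Myh7 did not. Myh7b, a slow-type myosin gene, was at 11.6, 3.27 and 11.0 CPM in CAAHR and at 1.53, 1.25 and 1.59 CPM in GFP, a rise of 2.56 ± 0.49 on the log2 scale (adjusted p = 0.0302). All 3 CAAHR libraries were above the GFP libraries. The call held in only 1 of 6 fits that left out a library, the one without CAAHR replicate 34. Myh7, which encodes the heavy chain of slow fibres, was at 877, 156 and 809 CPM against 37.5, 52.6 and 79.5 CPM, a log2 difference of 3.44 ± 0.78 that missed the threshold (adjusted p = 0.0692). Sox6 in CAAHR replicates 31 and 36, where these host genes were highest, was at 114.4 and 108.7 CPM, within the range of the GFP libraries. Neither the mature microRNAs nor Sox6 protein was measured, and an effect of these microRNAs on Sox6 was not tested.

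Of the slow programme regulators, Rcan1 and Prox1 varied most of the 9 members among CAAHR libraries, with coefficients of variation of 55.2% and 37.1%. That of Nfatc1 was 8.65%. Prox1, a homeobox factor needed for slow fibre genes and for lymphatic endothelium (chromosome 1, 190118035 to 190170714, minus strand), was at 1.70, 0.945 and 2.10 CPM in the CAAHR libraries, from 86, 54 and 128 counts, and at 0.933, 1.18 and 1.04 CPM in the GFP libraries, from 45, 49 and 55 counts. CAAHR replicates 31 and 36 lay above the GFP libraries and replicate 34 lay among them. The log2 difference was 0.59 ± 0.31 (adjusted p = 0.277), with an interval from -0.09 to 1.28 that includes both no difference and a doubling, and it was 0.32 without CAAHR replicate 36. Because Prox1 also marks lymphatic vessels, the lymphatic marker list is given beside it. Its summed level was 10.2 to 15.9 CPM in CAAHR and 15.0 to 17.3 CPM in GFP, with 0 of 4 tested markers called, all 4 fitted lower in CAAHR and Ccl21a at 0 in every library, and the part of these cells in the Prox1 value was not tested. In whole muscle, fewer cells of a type and less RNA per cell cannot be told apart.

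Nfatc1, the calcineurin-dependent factor that carries activity signals to slow genes (chromosome 18, 80606205 to 80713071, minus strand), was at 50.4, 50.9 and 43.5 CPM in CAAHR and at 45.2, 39.7 and 41.6 CPM in GFP. CAAHR replicate 36 fell within the GFP range and the other 2 lay above it. The log2 difference was 0.19 ± 0.10 (adjusted p = 0.269, interval -0.03 to 0.42). Counts report Nfatc1 mRNA, whereas its activity is set by where the protein lies, which was not measured.

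Rcan1 had the largest difference of the 9 members. Rcan1 encodes a protein that binds and regulates calcineurin, and its transcription is itself raised by calcineurin and NFAT, so that it is widely used as a readout of that pathway (chromosome 16, 92391953 to 92470867, minus strand). It was at 329.3, 99.96 and 196.8 CPM in CAAHR replicates 31, 34 and 36 and at 55.9, 74.0 and 67.7 CPM in GFP replicates 42, 43 and 46. Every CAAHR library was above every GFP library, and CAAHR replicate 34 was the closest, at 1.52 times the GFP mean.

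Mean Rcan1 was 208.7 ± 115 CPM in CAAHR and 65.9 ± 9.19 CPM in GFP (SD, n = 3 each), a fitted 3.17-fold difference with a 95% interval from 1.46 to 6.86. The log2 difference of 1.66 ± 0.44 had an unadjusted p of 0.0115 and did not pass after adjustment over all genes (edgeR, adjusted p = 0.0909). The coefficient of variation rose from 14.0% among GFP libraries to 55.2% among CAAHR libraries. Without CAAHR replicate 34 the difference was 1.99 ± 0.22 and passed (adjusted p = 0.00215), and without CAAHR replicate 31 it was 1.17 (adjusted p = 0.0874). Of the 6 fits that left out a library, the difference passed in 1. On all 6 libraries it passed with the DESeq2 Wald test (adjusted p = 0.00687), edgeR without robust estimation (0.0260) and weighted limma-voom (0.0137). By edgeR it missed without a filter on low counts (0.205) and with at least 10 counts in every library (0.0964). It also missed by edgeR with DESeq2 size factors (0.0922), upper quartile scaling (0.0978), library size only (0.0715) and the covariate described below.

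Rcan1 and the slow contractile genes took the same order among the CAAHR libraries, with replicate 31 highest, then 36, then 34. In the GFP libraries replicate 42 was lowest in both, while replicates 43 and 46 changed places. With the mean log2 CPM of the 10 slow contractile genes as a covariate, the Rcan1 difference between groups was -0.00041 ± 0.40 on the log2 scale. That covariate was itself higher in every CAAHR library than in every GFP library, so the group and the slow contractile level cannot be told apart.

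**Figure D2:**
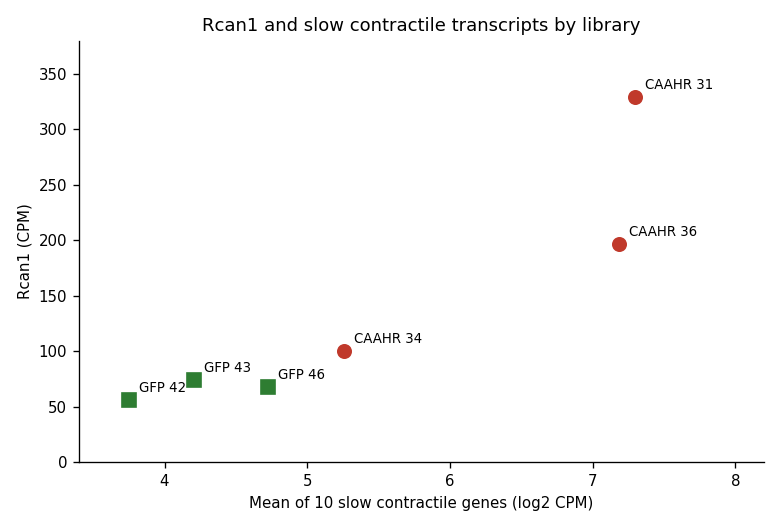
Rcan1 CPM (linear axis) in each of the 6 libraries against the mean log2 CPM of 10 slow contractile genes, with circles for CAAHR and squares for GFP. CAAHR replicate 34, at 99.96 CPM and a slow mean of 5.26, lies between the GFP libraries and CAAHR replicates 31 and 36.

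Rcan1 has a pair of RefSeq transcription starts, and the internal one gives the shorter product that calcineurin and NFAT are known to induce. The 250 bases before each start are shown because they bear on that pathway and on AHR. Searched on both strands were GGAAA (its complement reads TTTCC), the core bound by NFAT, and GCGTG (its complement reads CACGC), the core bound by AHR with its partner. Capitals mark GGAAA or TTTCC. Both sequences are on the minus strand, read 5′ to 3′ toward the start (RefSeq, GRCm38.p6), the distal one at chr16:92466170-92466419 and the internal one at chr16:92400079-92400328.
Rcan1 distal start: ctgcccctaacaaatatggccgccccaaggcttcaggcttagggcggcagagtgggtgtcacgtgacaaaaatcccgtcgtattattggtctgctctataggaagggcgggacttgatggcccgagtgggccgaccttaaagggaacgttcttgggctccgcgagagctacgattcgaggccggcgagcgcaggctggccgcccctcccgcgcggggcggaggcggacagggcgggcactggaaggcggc
Rcan1 internal start: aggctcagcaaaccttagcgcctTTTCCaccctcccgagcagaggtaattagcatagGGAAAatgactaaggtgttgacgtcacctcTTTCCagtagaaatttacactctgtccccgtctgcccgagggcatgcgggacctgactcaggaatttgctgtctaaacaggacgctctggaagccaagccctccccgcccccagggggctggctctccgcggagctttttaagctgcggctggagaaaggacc

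The window before the internal start held 3 matches to GGAAA and the distal window 0. Of 32851 windows of that length before RefSeq starts, 55.6% held at least 1 match and 6.39% held 3 or more. Neither Rcan1 window held GCGTG, which 28.2% of all windows held. RefSeq windows were searched for 6 of the 9 members, 15 in all, and 3 of these (20.0%) held GCGTG, namely 1 each of Sox6, Mef2a and Mef2d. Nfatc1 was left out of this search, and Eya1 and Tbx15 had no window. No match says only that these letters are not in the window, and counts per gene do not separate transcripts from the Rcan1 starts.

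The MEF2 factors bind AT-rich elements of muscle genes. Mef2c, with the most reads of the 3 in these muscles (chromosome 13, 83504034 to 83667080, plus strand), was at 991.3, 807.1 and 786.8 CPM in CAAHR and at 674.6, 628.8 and 697.8 CPM in GFP. The groups did not overlap. Means were 861.7 ± 113 and 667.1 ± 35.2 CPM, and the fitted difference was 1.29-fold with an interval from 1.07 to 1.57, or 0.37 ± 0.12 on the log2 scale (unadjusted p = 0.0145, adjusted p = 0.104). It passed with DESeq2 (adjusted p = 0.0372) and without a filter on low counts (0.0329), and in 0 of 6 fits that left out a library, whose differences ran from 0.25 to 0.42.

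Mef2a (chromosome 7, 67231163 to 67372858, minus strand) was at 176.5, 190.9 and 161.3 CPM in CAAHR and at 175.2, 173.9 and 128.5 CPM in GFP, with overlap and a log2 difference of 0.15 ± 0.14 (adjusted p = 0.570, interval -0.16 to 0.45). That difference was 0.223 without GFP replicate 42, 0.0787 without CAAHR replicate 34 and 0.0125 without GFP replicate 46. Mef2d (chromosome 3, 88142372 to 88172086, plus strand) was at 228.9, 249.7 and 226.0 CPM against 257.8, 229.6 and 230.2 CPM, a log2 difference of -0.03 ± 0.10 (adjusted p = 0.911, interval -0.25 to 0.20). It was the 1 member with a fitted value below 0, and its sign turned with scaling by library size only (0.054). The ratio of Mef2c to Mef2d CPM was 4.33, 3.23 and 3.48 in CAAHR and 2.62, 2.74 and 3.03 in GFP, higher in every CAAHR library. Mef2a shares 302 exon bases (2.06% of its own) with Lysmd4, and Mef2d shares 531 (8.87%) with 1700113A16Rik, both on the opposite strand, and whether counting used strand was not given in the sources used here.

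Mef2c is also made by endothelial, B and macrophage lineage cells. Summed endothelial markers were at 187 to 269 CPM in CAAHR and 198 to 250 CPM in GFP, with 0 of 7 called. B and plasma cell markers were at 9.61 to 19.3 CPM in CAAHR and 127 to 432 CPM in GFP, with 4 of 7 called lower (against 4.57% of all tested genes). All 7 were lower in every CAAHR library than in every GFP library (against 14.9% of all tested genes). Macrophage markers were at 18.3 to 31.6 CPM and 33.1 to 70.5 CPM, with 0 of 8 called by edgeR and 6 of 8 at an unadjusted p of 0.05 (against 23.9% of all tested genes). The immune lists were thus lower in the group where Mef2c was higher, and the part of these cells in the Mef2c value was not tested. By quantitative PCR, the paper reports that selected immune genes were not lower in CAAHR mice than in mice given no vector. The paper ascribes a local immune response in muscle to the GFP vector, so GFP is not a neutral reference for these lists.

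**Figure D3:**
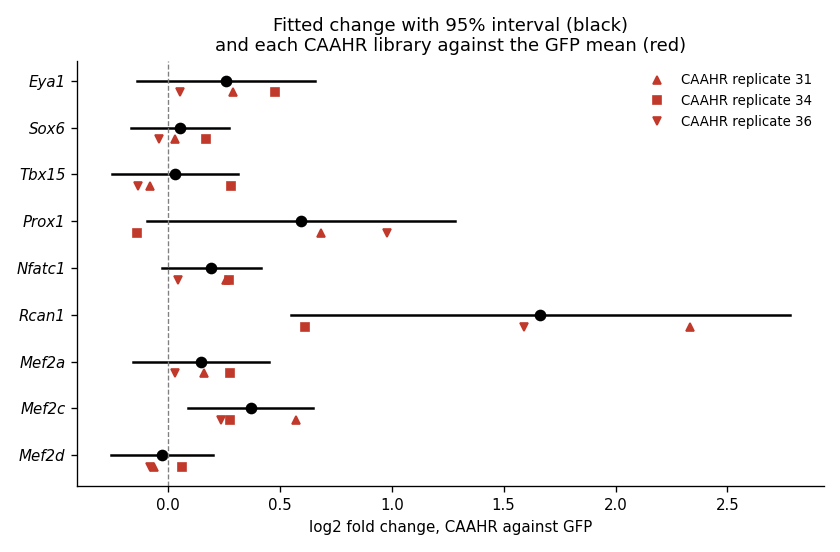
Log2 difference, CAAHR minus GFP, of each regulator with its 95% interval (black), and the log2 value of each CAAHR library against the GFP mean (red symbols). The intervals of Rcan1 (0.55 to 2.78) and Mef2c (0.09 to 0.65) lie above 0, and those of the other 7 members include it.

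Library by library, the fast and slow sides were set against each other as the mean log2 CPM of Eya1, Sox6 and Tbx15 minus that of Prox1, Nfatc1 and Rcan1. This difference was 1.65, 2.72 and 1.74 in CAAHR replicates 31, 34 and 36 and 2.87, 2.59 and 2.51 in GFP replicates 42, 43 and 46. CAAHR replicates 31 and 36 were below the GFP libraries and CAAHR replicate 34 was within their range. Group means were 2.04 ± 0.592 and 2.66 ± 0.188 (SD, n = 3 each).

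The fast side on its own was at 6.59, 6.82 and 6.47 mean log2 CPM in CAAHR and at 6.62, 6.51 and 6.36 in GFP, whose means differed by 0.13. The slow side was at 4.94, 4.10 and 4.73 in CAAHR and at 3.76, 3.92 and 3.85 in GFP, whose means differed by 0.75, and here the groups did not overlap. Of its members Rcan1 had the largest log2 difference, 1.66 against 0.59 for Prox1 and 0.19 for Nfatc1. Relative to Nfatc1, which acts in the same pathway, Rcan1 was 6.53, 1.96 and 4.53 times as high in CAAHR and 1.24, 1.86 and 1.63 times as high in GFP.

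The CAAHR libraries thus did not move as a set. Replicate 34, with the fewest slow contractile transcripts of the 3, was the highest CAAHR library for 6 members, Eya1, Sox6, Tbx15, Nfatc1, Mef2a and Mef2d, and the lowest for Rcan1 and Prox1. Replicate 31 was above the GFP range for 5 members and below it for 2, replicate 34 above it for 7 and below it for 0, and replicate 36 above it for 3 and below it for 2. Of all tested genes these libraries were above the GFP range for 33.9%, 32.4% and 34.6% and below it for 31.3%, 32.3% and 31.9%. Replicate 36 was the lowest CAAHR library for 7 members. Replicate 34 also had the lowest sums of endothelial, lymphatic, fibroblast, mural, Schwann, adipocyte and macrophage markers among CAAHR libraries, and the part of these in its order was not tested. Over the groups, fibroblast sums were at 294 to 532 CPM in CAAHR and 418 to 520 CPM in GFP, mural sums at 280 to 475 and 353 to 368 CPM, and Schwann sums at 35.3 to 57.9 and 57.2 to 104.6 CPM, with 0 of 6, 0 of 5 and 0 of 6 called by edgeR and 1, 1 and 2 at an unadjusted p of 0.05. Adipocyte sums were at 85.3 to 134 CPM in CAAHR and 90.2 to 202 CPM in GFP, with 2 of 6 called lower (against 4.57% of all tested genes). Fabp4 made up most of each sum and had a log2 difference of -0.03 ± 0.23 (edgeR, adjusted p = 0.957). All 6 were fitted lower, with a list median of -2.04.

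Levels between genes were compared per kilobase of annotated exon (CPM per kilobase). The length joined all annotated exons of a gene, 15715 bases over 31 transcripts for Mef2c and 3747 over 3 for Tbx15. Which transcripts were present was not measured, so the order of genes rests on the annotation. Without division by length, Mef2c (mean 667.1 CPM in GFP) was above Tbx15 (259.8 CPM). In GFP libraries Tbx15 was highest at 69.3 ± 1.66 (SD, n = 3), followed by Mef2c at 42.5 ± 2.24, Mef2d at 40.0 ± 2.69 and Rcan1 at 21.4 ± 2.98. Mef2a at 10.9 ± 1.82, Sox6 at 7.54 ± 0.377, Nfatc1 at 5.65 ± 0.377, Eya1 at 3.35 ± 0.781 and Prox1 at 0.125 ± 0.0147 came after. Among neighbours in this order, the library ranges of Mef2c and Mef2d overlapped and the others did not. In CAAHR libraries Rcan1 per kilobase was 106.7, 32.4 and 63.8, against 65.6, 84.2 and 63.1 for Tbx15, so that Rcan1 stood above Tbx15 in replicates 31 and 36 and below it in replicate 34.

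The genes whose pattern over the 6 libraries was most like that of a member were found by the root mean square difference of log2 CPM, centred on the GFP mean. Nearest to Rcan1 were Esrrg (0.155), an orphan nuclear receptor of oxidative muscle, Bdnf (0.205), a neurotrophin, and Casq2 (0.221), the calsequestrin of slow and cardiac muscle. Esrrg was at 75.3, 20.6 and 48.4 CPM in CAAHR and at 10.9, 19.5 and 16.8 CPM in GFP, with a log2 difference of 1.61 that missed the threshold (adjusted p = 0.148). Bdnf had few reads, at 2.45, 0.543 and 1.72 CPM in CAAHR and 0.332, 0.457 and 0.415 CPM in GFP. With log2 differences of 1.96 ± 0.51 (adjusted p = 0.0526) and 1.53 (adjusted p = 0.113), Bdnf and Casq2 missed the threshold too.

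Nearest to Prox1 were Acsf2 (0.126), Mamdc2 (0.129) and Abr (0.131), and nearest to Mef2c were 2700097O09Rik (0.0417), Gm45871 (0.0462) and Btbd1 (0.0561). Of these, Btbd1 rose by 0.41 ± 0.11 on the log2 scale (adjusted p = 0.0460), from a mean of 168.5 CPM in GFP to 223.9 CPM in CAAHR.

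The pathways around these regulators held 59 listed genes, of which 58 were tested and 4 called (6.90%, against 7.60% of all tested genes), 1 higher (against 3.04%) and 3 lower (against 4.57%). Their median log2 difference was -0.012, against 0.0086 over all tested genes. In the list of calcineurin and NFAT genes 2 of 13 were called (against 7.60% of all tested genes). Nfat5, the NFAT family member that responds to osmotic stress and does not need calcineurin, was at 47.2, 34.7 and 36.7 CPM in CAAHR and at 27.1, 24.9 and 23.4 CPM in GFP, a rise of 0.65 ± 0.13 (adjusted p = 0.0154). Nfatc2, a calcineurin-dependent NFAT that is also abundant in lymphocytes, was at 6.82, 6.88 and 5.46 CPM in CAAHR and at 18.4, 9.95 and 16.8 CPM in GFP, and fell by 1.24 ± 0.22 on the log2 scale (adjusted p = 0.0141).

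Both genes had no overlap between groups, in opposite directions. The Nfat5 call was lost without GFP replicate 43 or 46 (differences over fits without a library 0.50 to 0.73), and the Nfatc2 call without CAAHR replicate 31, CAAHR replicate 36 or GFP replicate 46 (-1.46 to -1.07). Summed T and NK cell markers were at 1.05 to 1.65 CPM in CAAHR and 2.59 to 9.13 CPM in GFP. Of 3 tested markers 1 was called lower (against 4.57% of all tested genes). The part of T and NK cell markers and that of the B cell markers in the Nfatc2 value were not tested. Chosen for their role after values were seen, the calcineurin catalytic subunit genes Ppp3ca and Ppp3cb had log2 differences of 0.29 ± 0.11 (adjusted p = 0.157) and -0.04 ± 0.16 (adjusted p = 0.910).

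Among the partners and repressors of MEF2, 1 of 15 tested genes was called (against 7.60% of all tested genes). Camk2d, a calcium/calmodulin-dependent kinase that can act on class II histone deacetylases, was at 46.1, 41.6 and 34.3 CPM in CAAHR and at 56.0, 57.9 and 52.1 CPM in GFP, and fell by 0.44 ± 0.12 on the log2 scale (adjusted p = 0.0484). The groups did not overlap, and the call was lost without CAAHR replicate 36 or any 1 of the GFP replicates 42, 43 and 46, with scaling by library size only, without robust estimation and with the slow contractile covariate. Hdac9, a class II deacetylase that represses MEF2, was at 3.01, 1.51 and 1.39 CPM against 6.40, 3.12 and 5.63 CPM, with a log2 difference of -1.37 ± 0.36 that missed the threshold (adjusted p = 0.0600). Mef2b did not reach the filter and was not tested.

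The list of further fast programme genes had 0 of 16 called by edgeR (against 7.60% of all tested genes), with 5 at an unadjusted p of 0.05 (against 23.9% of all) and a median log2 difference of 0.04. The smallest p-values in it were those of Smarcd3, a subunit of a chromatin remodeller in muscle, at 138.0, 170.1 and 132.4 CPM in CAAHR and 182.1, 190.7 and 203.3 CPM in GFP (-0.39 ± 0.12, adjusted p = 0.0779), and of Dach2, a corepressor that acts with Eya proteins, at 7.85, 2.28 and 4.64 CPM against 0.560, 1.59 and 1.74 CPM (1.92 ± 0.57, adjusted p = 0.0981). Neither pair of groups overlapped.

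Regulators of oxidative metabolism had 1 of 14 called (against 7.60% of all tested genes). Thra, the thyroid hormone receptor alpha gene, was at 56.9, 62.0 and 58.6 CPM in CAAHR and at 82.4, 73.0 and 90.4 CPM in GFP, and fell by 0.47 ± 0.10 on the log2 scale (adjusted p = 0.0247). The groups did not overlap, and the call was lost in 4 of 6 fits without a library, those without CAAHR replicate 31 or 36 or GFP replicate 42 or 46 (range -0.55 to -0.40). Ppara, a nuclear receptor for fatty acids, was at 12.7, 3.41 and 13.4 CPM against 1.70, 2.98 and 3.02 CPM (1.94 ± 0.57, adjusted p = 0.109), again lowest in replicate 34 among CAAHR libraries. Ppargc1a, the coactivator of mitochondrial biogenesis and chosen after its values were seen, had a log2 difference of -0.29 ± 0.16 (adjusted p = 0.304).

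**Figure D4:**
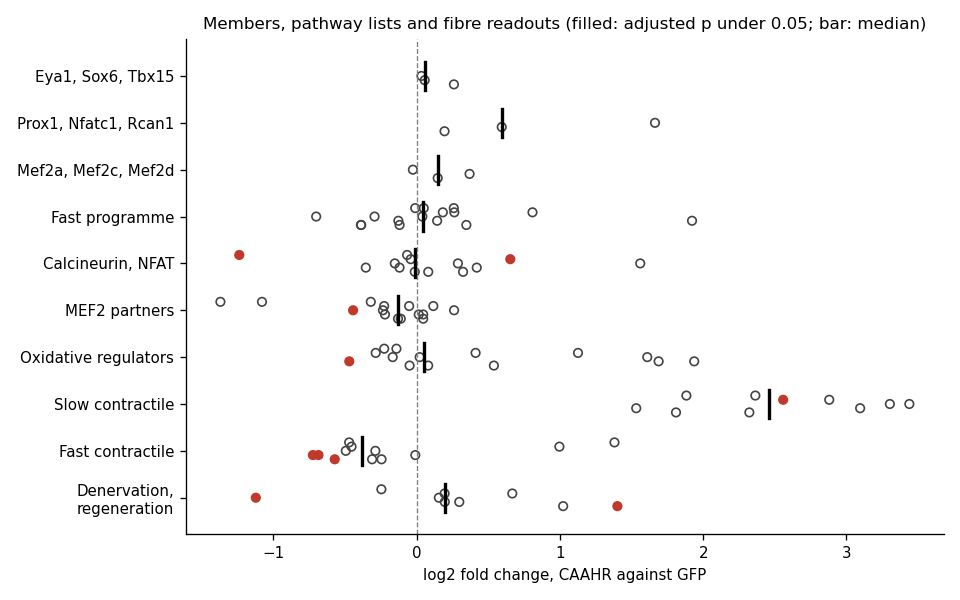
Log2 differences, CAAHR minus GFP, of each tested gene of the regulator, pathway and fibre readout lists, with the median of each list as a black bar and called genes (adjusted p under 0.05) filled in red. The slow contractile genes all lie above 0 with a median of 2.46, and the other lists have medians between -0.38 and 0.59.

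The readout lists of contractile and denervation or regeneration genes had 6 of 31 tested genes called (19.4%, against 7.60% of all tested genes), 2 higher (3.04% of all) and 4 lower (4.57% of all). These lists were set with earlier results of these data known, so the shares only describe them. In the slow contractile list all 10 genes were higher in CAAHR by the fitted value (median 2.46), 9 of 10 at an unadjusted p of 0.05 (against 23.9% of all tested genes), but Myh7b was the only 1 called by edgeR, and Atp2a2, the slow sarcoplasmic reticulum calcium pump, missed the threshold at 755.8, 212.8 and 585.7 CPM against 84.4, 103.7 and 122.6 CPM (2.32 ± 0.49, adjusted p = 0.0526). In the fast contractile list 3 of 12 were called, all lower (against 4.57% of all tested genes called lower), with 10 of 12 fitted below 0 and a median of -0.38. Tnnt3, fast troponin T, was at 15179, 20300 and 15759 CPM in CAAHR and at 26984, 27487 and 27938 CPM in GFP, and fell by 0.69 ± 0.15 on the log2 scale (adjusted p = 0.0264). Myl1, a fast essential light chain, fell by 0.72 ± 0.16 (adjusted p = 0.0280), and Tnni2, fast troponin I, fell by 0.57 ± 0.14 (adjusted p = 0.0417).

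General muscle fibre markers were also lower in sum, in a list that shares Myh4, Tnnt3 and Atp2a1 with the fast contractile genes. Their sums were at 160360 to 214480 CPM in CAAHR and 232280 to 243090 CPM in GFP. By edgeR 3 of 8 were called lower (against 4.57% of all tested genes). They were Acta1, skeletal actin (-0.74 ± 0.13, adjusted p = 0.00895), Ckm, muscle creatine kinase (-0.73 ± 0.16, adjusted p = 0.0251), and Tnnt3. Fitted above 0 were 2 of 8, Neb (0.38 ± 0.13, adjusted p = 0.118), higher in every CAAHR library, and Ttn (0.03 ± 0.13, adjusted p = 0.905). Atp2a1 differed by -0.01 ± 0.16 (adjusted p = 0.982). The part of general fibre markers in the fast contractile values was not tested.

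Each of the 3 fast contractile calls was lost in 5 of 6 fits without a library and was kept without CAAHR replicate 34. The myosin heavy chains of fast fibres did not pass. Myh4, the fastest, was at 57095, 86292 and 69724 CPM in CAAHR and at 92787, 88873 and 82745 CPM in GFP (-0.31 ± 0.18, adjusted p = 0.325), with CAAHR replicate 34 within the GFP range. Myh2, of fast oxidative fibres, was at 4459, 1334 and 5136 CPM against 469.0, 1191 and 2536 CPM (1.38 ± 0.81, adjusted p = 0.386), and Myh1 was at 6052, 2082 and 5324 CPM against 1327, 1311 and 4107 CPM (0.997 ± 0.65, adjusted p = 0.427).

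Genes that respond to denervation or regeneration, taken as a further readout because both can shift fibre type, had 2 of 9 tested called (against 7.60% of all tested genes). Fitted above 0 were 7 of 9 and below 0 were 2, Gadd45a among them. The list median was 0.20 on the log2 scale, against 0.0086 over all tested genes. Ankrd1, a stress-induced sarcomeric ankyrin repeat protein, was at 22.1, 18.5 and 24.9 CPM in CAAHR and at 6.76, 7.69 and 10.3 CPM in GFP, a rise of 1.40 ± 0.17 (adjusted p = 0.00212). Gadd45a, which is induced by denervation, was at 11.4, 8.70 and 8.17 CPM against 24.2, 21.1 and 16.3 CPM, and fell by 1.12 ± 0.17 on the log2 scale (adjusted p = 0.00654). Both were called in 6 of 6 fits that left out a library, unlike every called gene of the pathway and contractile lists. In CAAHR replicate 34, where Rcan1 lay closest to the GFP libraries, Ankrd1 was at 18.5 CPM against a GFP maximum of 10.3 CPM.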

How the data were processed

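Per the methods of the study, poly(A) RNA was sequenced as paired reads, trimmed with Trimmomatic 0.36, aligned to GRCm38 with STAR 2.5.2b and counted over exons with featureCounts from uniquely mapped reads. The authors deposited raw read counts per gene, neither normalised nor pooled. The members and gene lists were chosen with earlier results of these data known. Genes passing filterByExpr were tested in R 4.3.3 with edgeR 4.0.16 (TMM, robust quasi-likelihood F test, CAAHR against GFP, 3 libraries each, Benjamini-Hochberg over all tested genes, threshold 0.05), where the study used DESeq2. CPM used TMM-scaled library sizes, log2 CPM a prior count of 2, and SE was taken from F. Of 49315 rows, 174 named no symbol and stayed under their identifier. Counts of replicates differed beyond counting error (chi-square over its degrees of freedom, at least 21.6). Alternatives used DESeq2 1.42.0 and limma 3.58.1 (voom), and the fit was tested on simulated data. Named genes were all 9 members and, per list other than the marker lists, the called genes and the 2 with the smallest p, with Myh7, Myh4, Myh2, Myh1, Ahr and the 3 nearest patterns to each of the 3 members with the largest change. Marker lists are given by counts and sums where they stand beside a result. Acta1, Ckm, Neb, Ttn, Atp2a1, Fabp4 and Ccl21a of these lists were named outside this rule. Positions and lengths came from GENCODE M21, which matched 48970 of 49315 identifiers. A gene of the fast programme list is not reported here by name.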

Additional observations from a re-analysis of the deposited data

How the results depend on the processing

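The 1205 calls over all genes became 2470 without a filter on low counts, 1919 with the DESeq2 Wald test and 439 with the slow contractile mean as covariate, and 530 to 1727 when 1 library was left out (694 without CAAHR replicate 31, 530 without CAAHR replicate 36, 701 without GFP replicate 43 and 604 without GFP replicate 46). Of the 9 regulators, 0 called became 1 without a filter (Mef2c), 2 with DESeq2 (Rcan1 and Mef2c), 1 with limma-voom, 1 with edgeR without robust estimation (both Rcan1), and 0 to 1 when 1 library was left out (Rcan1 without CAAHR replicate 34). The 10 calls in the pathway and readout lists, an alternative count added after the data were seen, became 17 without a filter, 27 with DESeq2, 27 with limma-voom, 20 without robust estimation and 0 with the covariate (20 at an unadjusted p of 0.05). They ran from 2 without GFP replicate 46 to 33 without CAAHR replicate 34, with 6 and 3 without CAAHR replicates 31 and 36 and 5 without each of GFP replicates 42 and 43. The log2 difference changed sign for Sox6 (-0.016 with upper quartile scaling; -0.012 to 0.097 without 1 library), Tbx15 (-0.038 with upper quartile scaling and -0.037 with limma-voom; -0.12 to 0.10 without 1 library), Mef2d (0.054 with library size only and 0.17 with the covariate; -0.081 to 0.032 without 1 library), Prox1 (-0.53 with the covariate) and Rcan1 (-0.00041 with the covariate). Among the members that kept their sign, the covariate gave 0.80 for Eya1, 0.35 for Nfatc1, 0.49 for Mef2a and 0.19 for Mef2c. Of the 10 list calls lost with it, Gadd45a (-1.09), Nfatc2 (-1.05), Thra (-0.42), Camk2d (-0.37), Tnni2 (-0.42), Nfat5 (0.44) and Ankrd1 (0.85) kept the larger part of their difference. Myh7b (0.49), Myl1 (-0.20) and Tnnt3 (-0.32) kept the smaller part. Myh7b is itself 1 of the 10 genes averaged in the covariate, so the loss of its difference was partly fixed in advance. The cause was not tested. Of 135 checks of single members, 119 kept direction and side of the threshold, 6 newly passed it, 0 lost it and 10 changed sign. The fast minus slow difference of -0.62 was -0.62 with a prior count of 0.5 and -0.33 with the MEF2 factors added, and -0.96 to -0.43 without 1 library. No paired analysis was possible because CAAHR and GFP samples carry different numbers. Prox1, at 45 to 128 counts a library, is the member that depth limits most.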

Other observations

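Sox6os, a gene antisense to Sox6 (GRCm38, chromosome 7, 116031979 to 116032550, plus strand) that shares no exon base with it, was picked after its values were seen. It was at 1.54, 1.56 and 1.08 CPM in CAAHR replicates 31, 34 and 36 and at 2.67, 2.74 and 3.21 CPM in GFP replicates 42, 43 and 46. The groups did not overlap, and Sox6os fell by 1.05 ± 0.21 on the log2 scale (edgeR, adjusted p = 0.0182), while Sox6 differed by 0.06 ± 0.10 (adjusted p = 0.789). The Sox6os call was lost without CAAHR replicate 36 or GFP replicate 46, with differences from -1.15 to -0.90 over the fits without 1 library, and with the slow contractile covariate (-0.93). Whether counting used strand was not given in the sources used here, and without strand intronic Sox6 reads inside the Sox6os exons cannot be told apart from Sox6os.

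Satellite cell markers summed to 64.5 to 71.0 CPM in CAAHR and 56.7 to 58.3 CPM in GFP, with 0 of 6 called by edgeR and 1 of 6 at an unadjusted p of 0.05.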
